A study of Mus musculus with 18 samples.

Results

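The lymphocyte marker genes described here are Ptprc, Cd3e, Cd3g, Cd8a, Cd79a and Cd79b, 6 of the 15572 genes in a table of estimated RNA-seq counts from mouse liver. They were taken by gene symbol from a list, by a rule that did not use their measured values. That list was chosen with earlier results of these data known, so the choice was not blind to the data. All 6 were abundant enough to be tested. RNA-seq compared 2 libraries from wild-type (WT) mice with 2 from mice labelled as liver-specific JMJD1C knockouts (JMJD1C-LKO). All were C57BL/6J mice kept on chow for 6 to 8 weeks, fasted overnight and refed a high carbohydrate diet for 6 h. The WT mice were littermates. According to the study's methods the knockout combines an engineered Jmjd1c allele with a Cre transgene under the albumin promoter, which is active in hepatocytes, so lymphocytes in these livers are not the cells in which the gene was meant to be removed. Each RNA-seq library was made from pooled RNA, and neither the number nor the age of the pooled mice is in the labels, so p-values measure only the spread between pools. In the same study, accessible chromatin (ATAC-seq) was mapped in 2 livers each of fasted WT, refed WT and refed JMJD1C-LKO mice, and histone H3 dimethylated at lysine 9 (H3K9me2 ChIP-seq, each with its input) in 2 livers each of fasted and refed WT mice.

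Ptprc encodes CD45, a transmembrane tyrosine phosphatase found on nearly all nucleated blood cells, which sets the activity of Src family kinases at the antigen receptors of T and B cells. Cd3e and Cd3g encode the epsilon and gamma chains of CD3, the signalling complex of the T cell receptor, and Cd8a encodes the alpha chain of the CD8 coreceptor, which is carried by cytotoxic T cells and also by some dendritic cells. Cd79a and Cd79b encode the paired chains that signal for the B cell receptor. The liver holds resident and circulating lymphocytes among a great majority of hepatocytes, so in whole-liver RNA these transcripts are rare, and in such bulk samples fewer cells of a type and less RNA per cell cannot be told apart.

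In GRCm38.p6, Ptprc spans chr1:138062859-138175756 on the minus strand. Cd3e (chr9:44998735-45009663) and Cd3g (chr9:44969572-44980431) both lie on the minus strand of chromosome 9, 18303 bp apart. Cd8a lies at chr6:71373427-71379171 on the plus strand, Cd79a at chr7:24897497-24901858 on the plus strand and Cd79b at chr11:106311341-106314562 on the minus strand. None of the 6 genes overlapped another annotated gene. The promoters of Ptprc and Cd3e, the members that passed the test below, and of Cd79a, one of the B cell genes, are shown from 250 bases before to 50 after a transcript start (RefSeq, GRCm38.p6), 5′ to 3′ on the strand of the gene. Capitals mark, on either strand, the letters AGGAAG (the core of many ETS factor sites), CACCTG (an E-box of the kind bound by E proteins) and TGGGAA (the core of Ikaros sites). CACGTG, the E-box bound by USF-1, was searched as well, and no 2 matches overlapped.

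Ptprc, chr1:138175256-138175555 (minus strand): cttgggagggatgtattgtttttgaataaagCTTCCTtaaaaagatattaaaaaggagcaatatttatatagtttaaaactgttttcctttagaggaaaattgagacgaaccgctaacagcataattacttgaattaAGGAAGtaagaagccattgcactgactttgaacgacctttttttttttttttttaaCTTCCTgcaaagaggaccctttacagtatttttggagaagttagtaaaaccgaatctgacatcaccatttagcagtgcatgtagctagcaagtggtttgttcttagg

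Cd3e, chr9:45009562-45009861 (minus strand): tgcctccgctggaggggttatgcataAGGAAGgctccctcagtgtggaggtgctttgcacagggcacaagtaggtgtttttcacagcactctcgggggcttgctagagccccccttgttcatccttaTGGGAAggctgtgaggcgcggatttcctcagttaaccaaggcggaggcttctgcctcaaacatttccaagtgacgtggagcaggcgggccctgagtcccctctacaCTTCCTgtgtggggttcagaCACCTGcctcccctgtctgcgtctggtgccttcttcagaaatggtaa

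Cd79a, chr7:24897247-24897546 (plus strand): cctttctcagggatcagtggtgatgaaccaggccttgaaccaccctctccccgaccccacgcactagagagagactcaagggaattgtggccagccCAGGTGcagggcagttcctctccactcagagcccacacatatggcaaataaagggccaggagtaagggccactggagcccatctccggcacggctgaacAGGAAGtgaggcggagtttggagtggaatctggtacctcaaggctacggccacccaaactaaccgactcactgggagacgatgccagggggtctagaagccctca

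RefSeq windows were matched for 5 of the 6 members (not Cd79b), with a second start for Ptprc. CACGTG was found in 0 of these 5 genes, and in 7.15% of all 32851 promoter windows of the same length. AGGAAG was found in Ptprc, Cd3e and Cd79a (35.4% of all windows), CACCTG in Cd3e, Cd3g and Cd79a (20.2%), and TGGGAA in Cd3e, Cd3g and Cd8a (25.6%). In the Cd3e window AGGAAG began 17 bases before the start and CACCTG 4 bases into the transcript, and in the Cd79a window AGGAAG began 55 bases before the start. These matches describe the letters of the windows and not occupied sites.

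The 4 RNA-seq libraries held total estimated counts of 51265128 to 54400509. The median absolute log2 difference between libraries was 0.11 for the WT pair, 0.16 for the JMJD1C-LKO pair, and 0.24 to 0.31 between genotypes. Jmjd1c itself had estimated counts of 1140 and 1188 in the WT libraries and 990 and 1129 in the libraries labelled JMJD1C-LKO, a log2 fold change of -0.14 ± 0.08 (SE, n = 2 per group) with an adjusted p of 0.233 in edgeR's quasi-likelihood test. Counts over whole transcripts need not report a deleted part of a gene, and the part deleted was not used here. The study itself reported lower Jmjd1c mRNA by RT-qPCR, and no detectable Jmjd1c protein by immunoblotting, in JMJD1C-LKO livers. In the RNA-seq counts the expression of Jmjd1c was not shown to be lower, and the genotype of every comparison below is that of the labels.

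All 6 lymphocyte marker genes had more counts in each library labelled JMJD1C-LKO than in either WT library. Ptprc and Cd3e passed the test, and Cd3g, Cd8a, Cd79a and Cd79b, with fewer counts than Ptprc, had log2 fold changes of 0.72 to 1.32 and adjusted p-values of 0.0517 to 0.0731. These values come from the quasi-likelihood F test of edgeR with Benjamini-Hochberg adjustment over all 14151 genes tested, with an adjusted p under 0.05 counted as a call. By it, 2 of the 6 members were called higher and 0 lower, against 14.6% of all tested genes called higher and 13.4% called lower. All 6 members had both JMJD1C-LKO libraries above both WT libraries in CPM (counts scaled to library size with TMM factors), which held for 33.7% of all tested genes, and all 6 had an unadjusted p under 0.05 with a higher level, which held for 20.5%. The median log2 fold change was 1.01 over the 6 members and 0.01 over all tested genes. The 810 genes with a mean CPM in the range of the 5 members other than Ptprc had a median of 0.24, with 15.3% called higher and 43.2% having both JMJD1C-LKO libraries above both WT libraries.

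**Figure D1:**
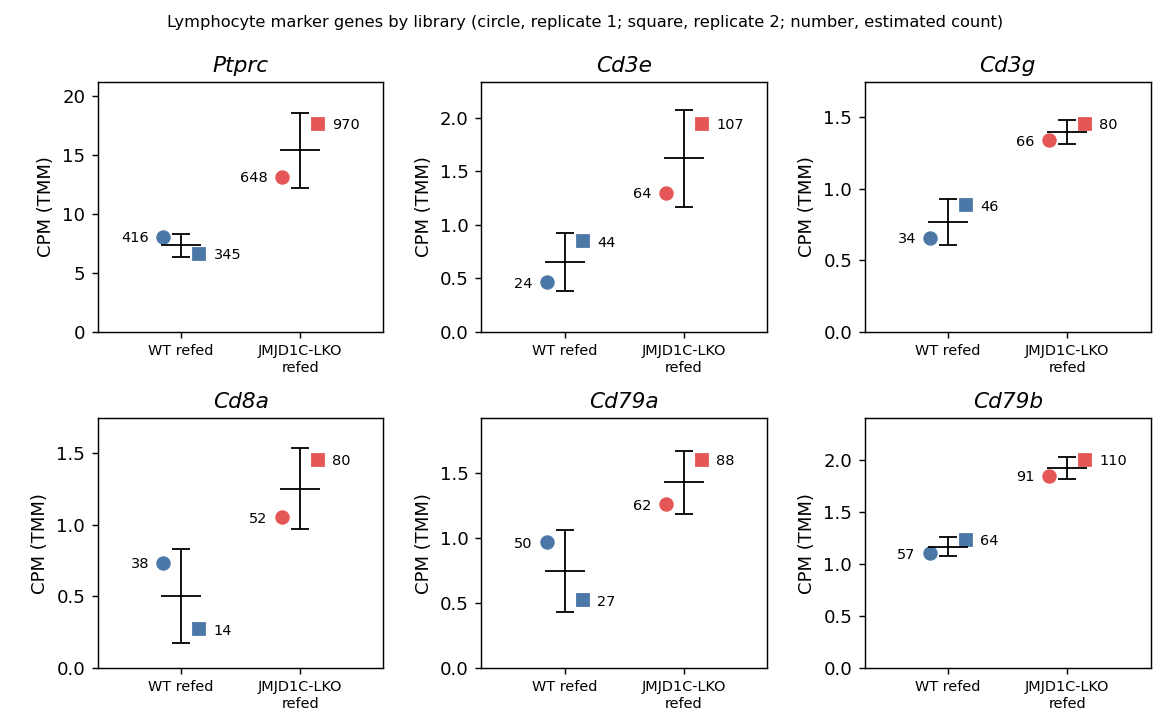
TMM-normalized CPM (y axis, from 0) of the 6 lymphocyte marker genes in the WT refed (blue) and JMJD1C-LKO refed (red) libraries, with each library's estimated count beside its point and the mean ± SD of the 2 libraries in black. Both JMJD1C-LKO points lie above both WT points in each of the 6 panels, and the WT pair of Cd8a (counts of 38 and 14) is spread over a wider ratio than any other pair.

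**Figure D2:**
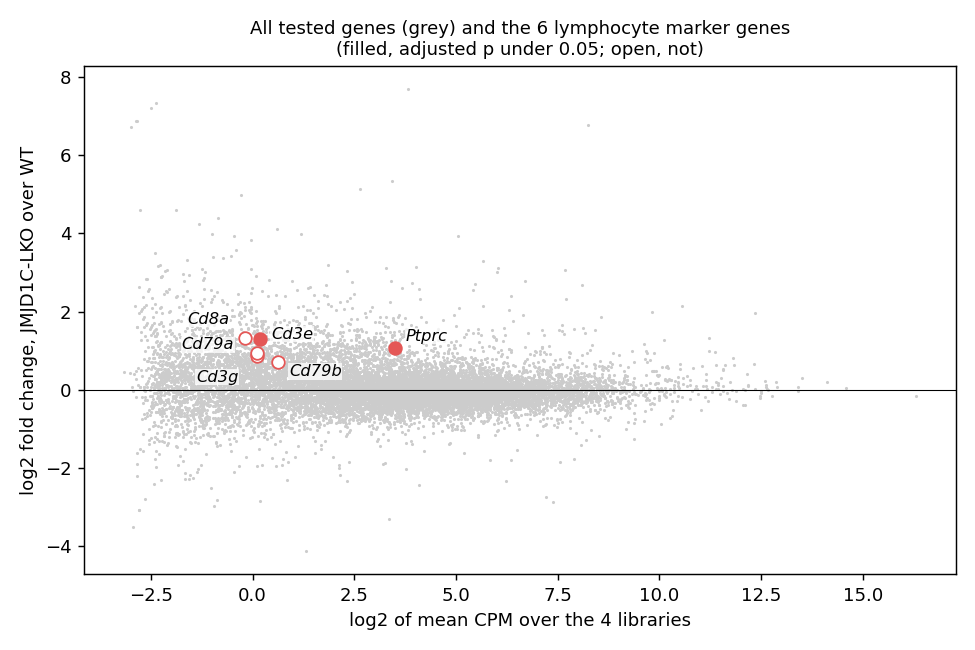
Log2 fold change of JMJD1C-LKO over WT (y axis) against the log2 of the mean CPM over the 4 libraries (x axis) for the 14151 tested genes (grey) and the 6 lymphocyte marker genes (red; filled where the adjusted p was under 0.05). The members lie between 0.72 and 1.32 on the y axis, within the upper part of the grey cloud at their levels.

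Ptprc had the highest level of the 6. Its estimated counts were 416 and 345 in the WT libraries and 648 and 970 in the JMJD1C-LKO libraries. The groups did not overlap, and the lower JMJD1C-LKO library exceeded the higher WT library 1.63-fold in CPM, a larger gap than the ratio between replicates of either genotype (1.21 in WT, 1.34 in JMJD1C-LKO). The log2 fold change was 1.07 ± 0.16 (SE) with a 95% interval of 0.71 to 1.43 on the log2 scale and an adjusted p of 0.0015. Ptprc passed the threshold in all 12 alternative fits.

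Ptprc is spliced into several isoforms, named after the variable exons they keep, and naive and activated lymphocytes differ in which of them they carry. Counts had been estimated for 3 of its RefSeq transcripts. NM_001111316, with 32 exons, is the longest. NM_011210 lacks its exons 3 to 5 (chr1:138122456-138122584, chr1:138120020-138120166 and chr1:138117754-138117894), and NM_001268286 also lacks exon 6 (chr1:138116954-138117025). The transcript that lacks all 4 exons took the largest share of the Ptprc count, 46.6% and 56.5% in the WT libraries and 44.5% and 55.9% in the JMJD1C-LKO libraries. NM_011210 took 29.2% and 28.7% in WT and 25.8% and 28.4% in JMJD1C-LKO. NM_001111316 took 24.2% and 14.8% in WT and 29.8% and 15.7% in JMJD1C-LKO. For NM_001268286 and NM_001111316 the replicates of a genotype differed by more than the genotypes did, and for NM_011210 both JMJD1C-LKO shares were slightly below both WT shares. These shares are estimates from reads that the transcripts largely have in common, so no test was made of them.

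Among the T cell members, Cd3e had estimated counts of 24 and 44 in the WT and 64 and 107 in the JMJD1C-LKO libraries. The groups did not overlap, with a 1.54-fold gap between the nearest libraries, while the WT pair differed 1.82-fold and the JMJD1C-LKO pair 1.5-fold. The log2 fold change of Cd3e was 1.31 ± 0.36 (adjusted p = 0.025), or 2.48-fold. The estimate moved with the library left out. Without WT replicate 1 the log2 fold change was 0.94, without WT replicate 2 it was 1.80, and without JMJD1C-LKO replicate 2 it was 0.98. The call did not hold in these fits, each of which leaves 1 genotype with a single library.

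Cd3g had counts of 34 and 46 in WT and 66 and 80 in JMJD1C-LKO, 2 narrow pairs that did not overlap. Its log2 fold change was 0.86 ± 0.30, with an adjusted p of 0.0598. Cd8a had counts of 38 and 14 in WT and 52 and 80 in JMJD1C-LKO. The WT pair was the most uneven of any member, 2.73-fold apart in CPM, and the 95% Poisson intervals of its counts, 26.9 to 52.2 and 7.65 to 23.5, did not overlap (these cover counting error only). The log2 fold change of Cd8a was 1.32 ± 0.45 with an adjusted p of 0.0517. It became 2.21 without WT replicate 1 (adjusted p = 0.0375), 1.53 without JMJD1C-LKO replicate 1 (adjusted p = 0.0294) and 0.77 without WT replicate 2 (adjusted p = 0.307), so the estimate for Cd8a depended on which WT library was kept.

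The summed counts of Cd3e, Cd3g and Cd8a were 96 and 104 in the WT libraries and 182 and 267 in the JMJD1C-LKO libraries. Summing brought the WT pair close together, since Cd8a was higher in replicate 1, and Cd3e and Cd3g in replicate 2. Per 100 counts of Ptprc, the 3 T cell genes gave 23.1 and 30.1 counts in WT and 28.1 and 27.5 in JMJD1C-LKO. The JMJD1C-LKO ratios lay between those of the WT libraries.

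Of the B cell members, Cd79a had counts of 50 and 27 in WT and 62 and 88 in JMJD1C-LKO. Its lower JMJD1C-LKO library exceeded the higher WT library 1.30-fold, the narrowest gap among the 6 genes and less than the 1.86-fold ratio between the WT replicates. The log2 fold change was 0.95 ± 0.35 (adjusted p = 0.0731), and without JMJD1C-LKO replicate 1 it was 1.10 (adjusted p = 0.0466). Cd79b had counts of 57 and 64 in WT and 91 and 110 in JMJD1C-LKO, and its replicates differed by no more than 1.12-fold in either genotype. Its log2 fold change, 0.72 ± 0.25, was the smallest of the 6 (adjusted p = 0.0566). Summed, the 2 genes had 107 and 91 counts in WT and 153 and 198 in JMJD1C-LKO. Per 100 counts of Ptprc this was 25.7 and 26.4 in WT and 23.6 and 20.4 in JMJD1C-LKO, and per count of the T cell genes it was 1.11 and 0.875 in WT and 0.841 and 0.742 in JMJD1C-LKO. Both ratios were lower in both JMJD1C-LKO libraries. For the ratio to the T cell genes, the nearest libraries of the 2 genotypes (0.875 and 0.841) differed by less than the WT pair did. Neither ratio was tested, nor was the difference between the B and the T cell genes, and both rest on small counts.

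Per length of transcript (RPKM, summed over a gene's transcripts), the order of the mean levels in WT was Ptprc at 1.39 ± 0.183 (SD, n = 2), Cd79b at 0.970 ± 0.092, Cd3g at 0.752 ± 0.156, Cd79a at 0.740 ± 0.315, Cd3e at 0.448 ± 0.185 and Cd8a at 0.161 ± 0.106. The libraries of Cd3g and Cd79a overlapped, as did those of Cd79a and Cd3e, and those of the other neighbours did not. In JMJD1C-LKO the means were 2.91 ± 0.620 for Ptprc, 1.61 ± 0.0745 for Cd79b, 1.42 ± 0.241 for Cd79a, 1.36 ± 0.0800 for Cd3g, 1.11 ± 0.314 for Cd3e and 0.401 ± 0.0893 for Cd8a. There Cd79b overlapped Cd79a, Cd79a overlapped Cd3g and Cd3g overlapped Cd3e. Ptprc was highest and Cd8a lowest in both genotypes, without overlap with a neighbour. The paired chains Cd79a and Cd79b had RPKM ratios of 1.06 and 0.499 in WT and 0.806 and 0.961 in JMJD1C-LKO, with the WT libraries the 2 extremes.

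The counts of Cd8a and Cd79b had each been divided between 2 transcripts. For Cd8a, NM_009857 held 62.0% of the gene in 3 libraries and 19.6% in JMJD1C-LKO replicate 2. For Cd79b, NM_001313939 held 30.3% and 88.8% in WT and 88.8% and 53.7% in JMJD1C-LKO. The same share recurred to 3 digits in libraries with different counts, and the others lay far from it, so the gene totals were used and no isoform of these 2 genes was compared.

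The members were set beside other genes known from T cells. Of 17 tested T cell genes that are not members, 7 rose in JMJD1C-LKO and 0 fell, all 17 had both JMJD1C-LKO libraries above both WT libraries, and the median log2 fold change was 1.10. Over all tested genes, 14.6% were called higher and 13.4% lower, and 33.7% had such a separation. These shares also apply to the lists below. Cd8b1, Themis and Ubash3a, all called, had 4 to 6 counts in each WT library. They passed the filter for low counts only through the JMJD1C-LKO libraries, so they could hardly have been called lower. Cd5, Cd28 and Cd247, not called, reached the filter level in only the higher WT library and needed a JMJD1C-LKO library as well. Cd8b1, the beta chain of the CD8 coreceptor, which lies 35934 bp from Cd8a, had counts of 4 and 5 in WT and 45 and 53 in JMJD1C-LKO. Its log2 fold change was 3.40 ± 0.47 (adjusted p = 0.00108), or 10.6-fold, from WT counts whose lowest has a 95% Poisson interval of 1.09 to 10.2. The difference between Cd8b1 and Cd8a was not tested.

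Themis, which acts in the positive selection of thymocytes, had counts of 6 and 4 in WT and 22 and 32 in JMJD1C-LKO (log2 fold change of 2.39 ± 0.54, adjusted p = 0.0103). Cd4, the coreceptor of helper T cells, had counts of 28 and 25 in WT and 54 and 64 in JMJD1C-LKO (1.14 ± 0.33, adjusted p = 0.0293). The other genes that rose were Cd7 (1.64), the interleukin-7 receptor gene Il7r (1.31), Thy1 (0.89) and Ubash3a, with 4 counts in each WT library and 12 and 21 in JMJD1C-LKO. Cd3d, the third CD3 chain, named here after its values were seen, lies 1337 bp from Cd3g. It had counts of 44 and 18 in WT and 58 and 61 in JMJD1C-LKO, with a log2 fold change of 0.93 ± 0.42 and an adjusted p of 0.125. Tcf7, the most abundant gene of the list, had 201 and 200 counts in WT and 196 and 248 in JMJD1C-LKO (log2 fold change of 0.14, adjusted p = 0.592). The count of 7 genes fell to 1 without either WT library, to 2 without JMJD1C-LKO replicate 2 and to 4 with DESeq2.

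Of 19 tested B cell genes that are not members, 4 rose and 0 fell in the edgeR test (0 fell at an unadjusted p under 0.05 or with DESeq2 as well), 9 had both JMJD1C-LKO libraries above both WT libraries, and the median log2 fold change was 0.44. Of all tested genes 14.6% were called higher, and of those at the level of the lower members 15.3%. Both JMJD1C-LKO libraries were above both WT libraries for 33.7% and 43.2% of these genes. Beside these shares, the 2 counts are no clear result about the B cell genes. The 4 that rose were Cd22, an inhibitory coreceptor of the B cell receptor (0.92 ± 0.24, adjusted p = 0.0183), Cd72 (0.94 ± 0.25), the tetraspanin gene Cd37 (0.86 ± 0.24) and the adaptor gene Bank1 (0.68 ± 0.21). Cd37 and Cd72 are also expressed by other leukocytes. Pax5 and Ms4a1, which are narrower to B cells, and Ebf1 were named after their values were seen. Pax5, the factor that maintains B cell identity, had 13 and 6 counts in WT and 11 and 14 in JMJD1C-LKO (0.38, adjusted p = 0.658). Ms4a1, which encodes CD20, had 3 and 8 counts in WT and 13 and 22 in JMJD1C-LKO (1.63 ± 0.62, adjusted p = 0.0782). It too passed the filter for low counts only through the JMJD1C-LKO libraries. Ebf1 had a log2 fold change of -0.31 (adjusted p = 0.664). The count of 4 genes went to 0 without either WT library and to 0 without JMJD1C-LKO replicate 2.

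**Figure D3:**
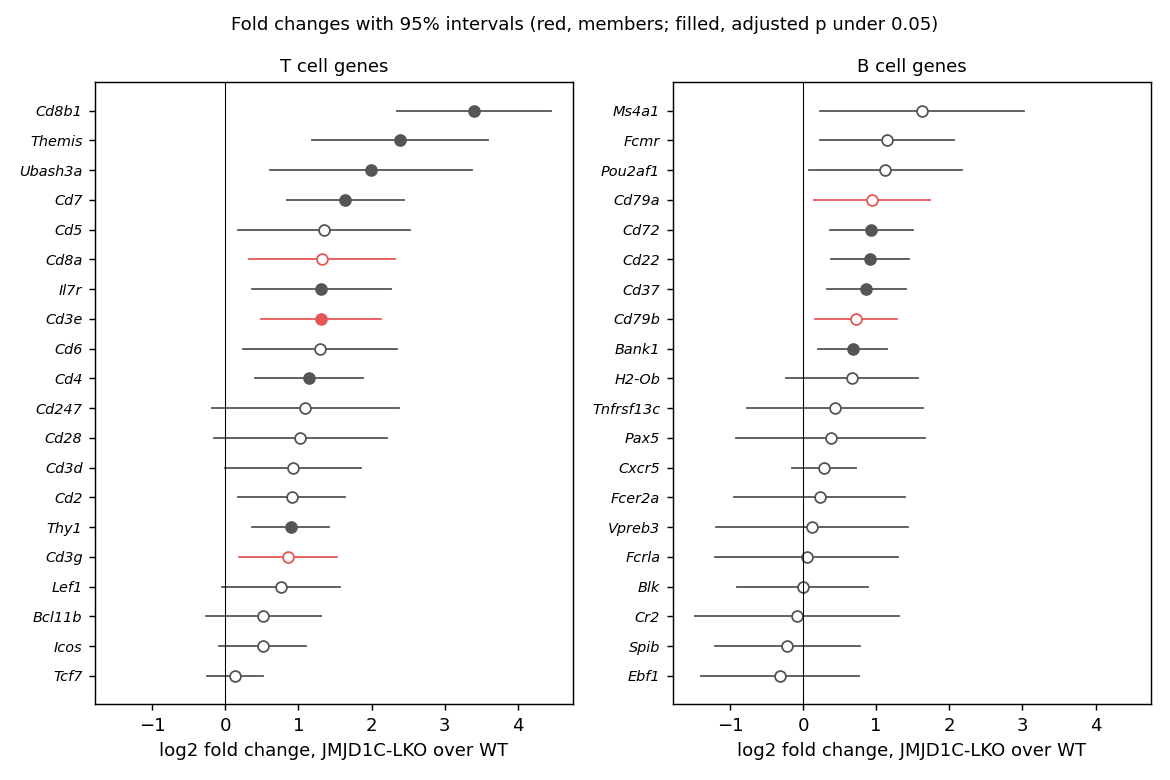
Log2 fold changes of JMJD1C-LKO over WT with 95% intervals (x axis) for the tested T cell genes (left) and 20 B cell genes (right), with the lymphocyte marker genes in red and filled points where the adjusted p was under 0.05. All 20 T cell points lie to the right of 0, from 0.14 for Tcf7 to 3.40 for Cd8b1, and the B cell points run from -0.31 for Ebf1 to 1.63 for Ms4a1. Cd8b1, Themis, Ubash3a and Ms4a1 passed the filter for low counts only through the JMJD1C-LKO libraries. For Cd5, Cd28, Cd247, Pou2af1, Pax5, Tnfrsf13c, Vpreb3 and Fcrla only the higher WT library reached the filter level. These genes therefore also needed a JMJD1C-LKO library to be tested.

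Genes that carry the antigen receptor signal inside the cell were also compared. Of 23, 15 rose and 0 fell, with a median log2 fold change of 1.06. Zap70, the kinase recruited by CD3 chains, had counts of 295 and 258 in WT and 579 and 642 in JMJD1C-LKO (1.14 ± 0.13, adjusted p = 0.000414). Syk, the kinase recruited by CD79 chains, had 313 and 329 in WT and 615 and 1105 in JMJD1C-LKO (1.40 ± 0.20, adjusted p = 0.00119), and Vav1, an exchange factor downstream of both, had a log2 fold change of 1.53 ± 0.21. Syk and Vav1 act in other leukocytes as well. The count of 15 genes was 8 without WT replicate 1, 6 without WT replicate 2, 10 without JMJD1C-LKO replicate 2 and 9 with the most abundant transcript per gene.

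Markers of other leukocytes moved with the genotype labels in the same direction as the members. Of 20 pan-leukocyte genes other than Ptprc, 16 rose and 0 fell (median log2 fold change of 1.14), and their summed level was 153 to 155 CPM in WT and 221 to 278 CPM in JMJD1C-LKO. Lcp1 alone made up 41.0% of this sum over the 4 libraries. Cytip, Laptm5 and Dock2 had the smallest p-values, with log2 fold changes of 2.61, 1.78 and 1.48. Of 16 Kupffer cell and macrophage genes, 15 rose and 1 fell (median of 1.15; the gene that fell, named after its values were seen, was the iron exporter gene Slc40a1 at -0.34), with summed levels of 561 to 588 CPM in WT and 897 to 1215 CPM in JMJD1C-LKO. Adgre1, Marco and Cd5l rose by 2.25, 1.46 and 1.46 on the log2 scale.

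Of 15 tested natural killer and cytotoxic cell genes, 8 rose and 0 fell (median of 1.02), with summed levels of 9.15 to 9.63 CPM in WT and 21.4 to 30.5 CPM in JMJD1C-LKO. Gzma, Il2rb and Ccl5, which cytotoxic T cells express too, rose by 2.90, 2.05 and 1.71. The count of 8 genes was 3 without WT replicate 1 and 3 without WT replicate 2. Of 10 dendritic cell genes 4 rose, Irf8 (1.17), Clec9a (1.13), Flt3 (2.21) and Itgax (1.63). Flt3 had counts of 4 and 11 in WT and 28 and 43 in JMJD1C-LKO. It needed a JMJD1C-LKO library to pass the filter for low counts, so it could hardly have been called lower. Of 7 neutrophil and monocyte genes 4 rose, Csf3r (1.62), Lyz2 (0.95), Ly6c2 (1.93) and Ccr2 (1.56). In neither list did a gene fall, and Itgax and Ccr2 were named after their values were seen. The dendritic count was 2 without JMJD1C-LKO replicate 2, and the neutrophil and monocyte count was 2 without WT replicate 1. Summed levels of the dendritic list were 13.2 to 13.3 CPM in WT and 22.2 to 31.0 CPM in JMJD1C-LKO. Those of the neutrophil and monocyte list were 24.0 to 26.5 CPM and 45.1 to 59.2 CPM. Over the 4 libraries, Irf8 alone made up 42.7% of the dendritic sum and Lyz2 alone 83.4% of the neutrophil and monocyte sum. In each of these 5 lists, as in the sum of the T cell members and the sum of the B cell members, JMJD1C-LKO replicate 2 was above replicate 1. The part of these other cells in the values of Ptprc, which all of them carry, was not tested.

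Of 10 erythroid and platelet genes 2 rose (Alas2 by 0.59 and Ppbp by 1.42) and 0 fell, 5 had both JMJD1C-LKO libraries above both WT libraries, and Itga2b had a value of 0.46 (adjusted p = 0.124). The number called higher was 5 without WT replicate 1, 0 without WT replicate 2, 1 without JMJD1C-LKO replicate 2, 1 with DESeq2 and 0 with the most abundant transcript per gene. Their summed level was 1063 and 592 CPM in the WT and 933 and 923 CPM in the JMJD1C-LKO libraries. WT replicate 1, the library with the most of this RNA, also had the higher WT counts of Ptprc, Cd8a and Cd79a and the lower WT counts of Cd3e, Cd3g and Cd79b. Of 14 liver endothelial genes 7 rose and 0 fell (median of 0.41), led by Stab2, Oit3 and Pecam1 at 0.82, 0.97 and 0.93, with summed levels of 285 to 293 CPM in WT and 341 to 440 CPM in JMJD1C-LKO. The endothelial count was 4 without WT replicate 1, 3 without WT replicate 2 and 12 without JMJD1C-LKO replicate 1. Of 14 hepatocyte genes 5 rose and 0 fell, Tat, Pck1 and Cps1 having the smallest p-values (2.15, 1.33 and 0.64) and Ass1 (0.64) and G6pc (0.71), named after their values were seen, making up the rest (3 rose without WT replicate 2), while the summed hepatocyte level was 142758 to 144812 CPM in WT and 139581 to 154175 CPM in JMJD1C-LKO. The part of blood, endothelium and hepatocytes in the members' values was not tested.

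**Figure D4:**
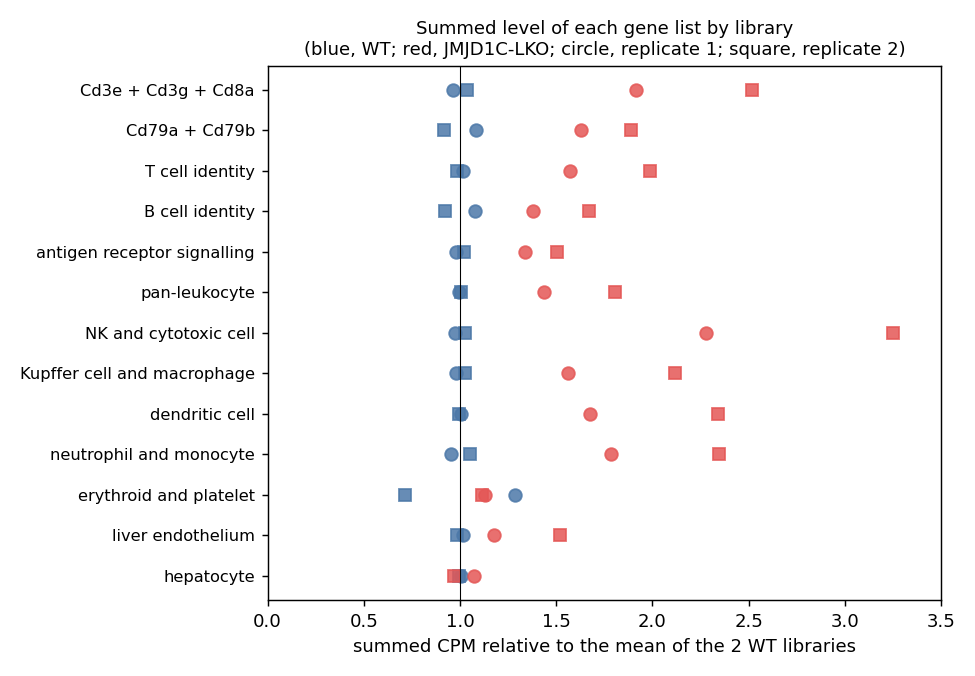
Summed CPM of the T cell members, the B cell members and 11 lists of marker genes (rows) in each library, relative to the mean of the 2 WT libraries (x axis; blue, WT; red, JMJD1C-LKO; circles, replicate 1; squares, replicate 2). The T cell members stand at 1.92 and 2.52 and the B cell members at 1.63 and 1.89 in the JMJD1C-LKO libraries, the rows from T cell identity to neutrophil and monocyte show both red points to the right of both blue ones, and in the erythroid and platelet and the hepatocyte rows the colours overlap. A single gene can make up much of a sum over the 4 libraries. Lyz2 made up 83.4% of the neutrophil and monocyte, Alb 55.6% of the hepatocyte, Irf8 42.7% of the dendritic and Lcp1 41.0% of the pan-leukocyte sum. Some lists are not drawn. In the JMJD1C-LKO libraries the plasma cell list stood at 0.84 and 0.69 (Xbp1 made up 55.6% of its sum over the 4 libraries). Lymphoid chemokines and cytokines stood at 0.88 and 0.92. Cxcl12, which fell, made up 81.0% of that sum, while of 11 tested genes 3 rose and 1 fell. The sex-linked list stood at 0.94 and 0.86, and the exocrine pancreas list at 1.52 and 1.54 (Cela1 made up 88.5%).

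Chromatin data were searched at the 6 genes. The peak lists give summits, single positions without read counts, and how deeply each sample was sequenced is unknown from them. With a summit counted within 1000 bp of a RefSeq transcript start, 0 of the 6 members had one in any of the 6 ATAC-seq or 4 H3K9me2 samples. Among all 26180 annotated genes, ATAC-seq summits were found at 12.0% and 5.49% in the fasted WT livers. The refed WT livers had them at 9.94% and 6.24%, and the refed JMJD1C-LKO livers at 4.06% and 0.886%. Fasted livers had H3K9me2 summits at 29.3% and 42.7% of the genes, and refed livers at 0.233% (replicate 1, which stood apart with 61 genes) and 35.1%. The share of annotated genes is thus low enough in most ATAC-seq samples that 0 of 6 is no result about the members. In 3 of the 4 H3K9me2 samples the share lay between 29.3% and 42.7%. Whether 0 of 6 members departs from it was not tested. Of the 20 T cell genes of the list above, counted whether tested or not, Tcf7 had an H3K9me2 summit in WT fasted replicate 2 and no other had one in any sample, and of the 20 B cell genes 0 had one in any sample. Of 14 hepatocyte genes, 11 and 12 had one in the fasted samples, and 10 had one in refed replicate 2 and 0 in refed replicate 1.

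Apart from refed replicate 1 of the H3K9me2 samples, many of the summits nearest to the members lay at the starts of other genes. The nearest H3K9me2 summit to Cd79a was 7083 and 5690 bp from its start in the fasted livers, at the start of Arhgef1. Those nearest to Cd3g, 14315 to 15234 bp away in the fasted livers and refed replicate 2, lay at the start of Ube4a, and those nearest to Cd8a, 66776 to 66819 bp away in the same samples, at Rmnd5a. For Cd8a an ATAC-seq summit at the same Rmnd5a start was the nearest in 5 of 6 livers. Ptprc was the exception. The closest transcript start to its ATAC-seq summits, 34741 and 34743 bp upstream in the fasted livers and 34642 bp upstream in WT refed replicate 1, was that of Ptprc itself, and in WT refed replicate 2 a summit lay within the gene, 70432 bp from the start. In the JMJD1C-LKO refed livers the nearest ATAC-seq summits to Ptprc were 753528 and 1810192 bp away, in samples with 1450 and 825 summits in all against 3119 to 7632 in the WT livers.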

How the data were processed

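The RNA-seq values deposited by the authors are estimated counts of RefSeq transcripts without scaling. The submitters' processing notes name mm10, HISAT2 and Partek, and the counting method and strand are not given in the sources used here. For ATAC-seq and H3K9me2 ChIP-seq, the authors deposited MACS2 summits of each sample with the −log10 of the q-value (q-value cutoff of 0.05). A deposited table of the authors' own comparison (p-value, FDR and fold change per transcript) was not used.

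Counts were summed per gene, rounded, filtered with filterByExpr and tested with edgeR 4.0.16 in R 4.3.3 (TMM, quasi-likelihood F test, 2 WT refed against 2 JMJD1C-LKO refed libraries, no covariates, Benjamini-Hochberg over 14151 genes). The scripts were tested on simulated data. Transcripts were placed on the RefSeq annotation of GRCm38.p6, the build also called mm10, which matched 24682 of 24994 by identifier. Counts of 14 to 110 among at least 51265128 per library limit the precision of the low genes, as do the 2 pools per genotype.

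The members and the 15 lists of marker genes were chosen with earlier results of these data known. The genes named are the 6 members, from each list the 3 lowest p-values, every T or B cell gene past the threshold, the 3 genes nearest in pattern to the T and to the B cell sum, and Jmjd1c. Alternatives were DESeq2 1.42.0, other scalings and filters, the most abundant transcript per gene, the replicate block, leaving out each library, and other windows for summits. The values of 1 gene of the B cell list are not reported here.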

Additional observations from a re-analysis of the deposited data

How the results depend on the processing

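All 6 members had a positive log2 fold change in all 12 alternatives, and 31 of the 72 values passed the threshold. The number of members called, 2 as reported, was 5 with upper-quartile factors, 5 when at least 50 counts in 2 libraries were required, 1 with the most abundant transcript per gene and 1 to 4 when 1 library was left out. In these last fits a genotype has a single library, which is assumed to vary like the other genotype. The replicate numbers do not pair the libraries (correlation of same-numbered deviations of -0.0046), and with the replicate block 4 members were called, with Cd8a at 1.38 and Cd79a at 0.97 now past the threshold, as were 2211 genes higher and 1996 lower.

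With upper-quartile factors, which moved the median of all genes by 0.07, Cd3g (0.92), Cd8a (1.39) and Cd79b (0.79) passed the threshold, and 2518 genes were called higher and 1330 lower in place of 2066 and 1892. With at least 50 counts in 2 libraries, Cd3g (0.88), Cd8a (1.34) and Cd79b (0.74) passed, in a fit with fewer genes. Cd3g and Cd8a, like Cd3e, had fewer than 50 counts in both WT libraries. They met the requirement only through the JMJD1C-LKO libraries, so their passing there adds no support. With the most abundant transcript per gene Cd3e, at 1.31, did not pass (adjusted p = 0.0732), and 1263 genes were called higher and 1063 lower. The cause of these differences was not tested.

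Leaving out 1 library gave log2 fold changes of 0.84 to 1.26 for Ptprc, 0.94 to 1.80 for Cd3e, 0.66 to 1.08 for Cd3g, 0.77 to 2.21 for Cd8a, 0.56 to 1.46 for Cd79a and 0.64 to 0.80 for Cd79b, and 660 to 2590 genes called higher and 408 to 2590 lower. Alternatives for the lists were added after seeing the data. The T cell list had 1 to 10 genes called when 1 library was left out, 4 with DESeq2, 4 with at least 50 counts and 3 with the most abundant transcript, and the B cell list 0 to 4, and 0 with the most abundant transcript. When 1 library was left out, the count was 12 to 17 for the pan-leukocyte, 12 to 15 for the Kupffer cell and macrophage, 6 to 19 for the antigen receptor signalling, 3 to 10 for the natural killer and cytotoxic cell, 2 to 5 for the dendritic cell, 2 to 4 for the neutrophil and monocyte, 0 to 5 for the erythroid and platelet, 3 to 12 for the endothelial, 3 to 6 for the hepatocyte, 2 to 3 for the chemokine and 0 to 1 for the plasma cell and the pancreas list. With summits counted over the gene body or 1000 bp upstream, 1 member (Ptprc, in WT refed replicate 2) had an ATAC-seq summit in place of 0, and with a window of 2500 bp or a score of at least 5 there were 0.

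With 2 pools a genotype, counts of 14 to 110 for 5 of the 6 genes limit the precision.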

Other observations

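Genes for lymphoid chemokines and cytokines did not move one way: of 11 tested, 3 rose and 1 fell. Cxcl16, which rose by 1.14, was named after its values were seen. Vcam1, an adhesion molecule for lymphocytes on activated endothelium, had counts of 613 and 749 in WT and 1908 and 3295 in JMJD1C-LKO (log2 fold change of 1.91 ± 0.18, adjusted p = 0.000189 in edgeR's quasi-likelihood test). Cxcl9, a chemokine induced by interferon gamma that attracts T cells, rose by 1.15 ± 0.12, and Cxcl12 fell by 0.41 on the log2 scale. Of 8 plasma cell genes 1 rose (Sdc1, 0.33) and 2 fell, Derl3 from 1040 and 1247 counts to 309 and 248 and Xbp1 from 17406 and 18920 to 11267 and 9175. Both fallen genes belong to the secretory pathway, which hepatocytes use as well. Without either WT library 0 plasma cell genes rose, and 2 chemokine and cytokine genes rose and 0 fell.

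By the distance between centred log2 CPM over the 4 libraries, the genes nearest to the sum of Cd3e, Cd3g and Cd8a among 2549 of similar level were Tor4a, Lilra5 and AI662270 (distances of 0.088, 0.092 and 0.095). Those nearest to the sum of Cd79a and Cd79b among 2424 were Bin2, Ikzf1 and Tspan18 (0.041, 0.057 and 0.062). With 4 libraries these are descriptions only.

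Of 3 measured exocrine pancreas genes Cela1 rose (0.65), and Amy2a5 and Cela2a had values of 0.40 and 0.32 that did not pass the test. Of 5 sex-linked genes Kdm5d fell by 0.63 on the log2 scale, and Ddx3y and Eif2s3y had values of -0.12 and -0.06 that did not pass it. Without either WT library neither Cela1 nor Kdm5d passed the test.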
